A study of Mus musculus with 9 samples.

Results

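Enzymes that remove superoxide and peroxides, 10 in all, were followed in neonatal rat ventricular myocytes (NRVMs) overexpressing LacZ, Nrf1 or Nrf2. They are the superoxide dismutases *Sod1*, *Sod2* and *Sod3*, catalase (*Cat*), the glutathione peroxidases *Gpx1*, *Gpx3*, *Gpx4*, *Gpx7* and *Gpx8*, and the methionine sulfoxide reductase *Msra*. The 10 genes were chosen by symbol, and all 10 were found in each of the 3 tables, which list 14819, 14986 and 14908 genes for the pairs Nrf1 and LacZ, Nrf2 and LacZ, and Nrf1 and Nrf2. NRVMs are ventricular heart muscle cells isolated from newborn Sprague Dawley rats and kept in culture. After 48 h in culture they were infected with adenovirus at 50 infectious units per cell, and RNA was collected 48 h after infection. The virus carried, under a CMV promoter that is active in most cell types, the coding region of bacterial β-galactosidase (the LacZ control group), mouse Nrf1 or mouse Nrf2, and in every group also a red fluorescent protein. Each group has 3 libraries, and no source used here says whether they came from separate isolations of cells, so the p-values below measure the spread between these libraries, which may be technical.

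Superoxide dismutases turn superoxide into hydrogen peroxide, which catalase and the peroxidases then remove. *Sod1* encodes the copper-zinc enzyme of the cytosol, *Sod2* the manganese enzyme of the mitochondrial matrix and *Sod3* the copper-zinc enzyme secreted into the extracellular matrix. Cardiomyocytes are packed with mitochondria, the main source of superoxide in these cells, and Nrf1 and Nrf2 are related transcription factors that bind antioxidant response elements.

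The deposited tables, 1 per pair of groups, give the authors' mean normalised read count of each group, that is, the mean over its libraries of read counts divided by size factors. The fold changes below are ratios of these means, and a gene was counted as past the fold where the ratio exceeded 1.5 in either direction. Because every group occurs in 2 tables with different scaling, the whole read counts of the single libraries could be solved from the means. The 9 libraries hold 7874461 to 11905658 recovered reads, and within a group they are called a, b and c from the deepest to the shallowest, since they could not be matched to the labelled replicate numbers. Library values are given on a scale common to the 9 libraries, which differs slightly from the scale of each table. The differences were tested with limma on log2(normalised read count + 1), with Benjamini-Hochberg adjustment over the 11202 to 11404 genes with an average mean of at least 10, an analysis added after the values had been seen. SE denotes the standard error of the log2 difference in that fit, and the 95% intervals are of the same difference. The log2 values printed beside them are log2 ratios of group means, except where a fit over all 9 libraries is named. They can differ slightly from the fitted difference, as for *Sod3* between Nrf2 and Nrf1 (0.273 against 0.262).

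The gene of the Nrf2 vector, *Nfe2l2*, had 3399 to 3493 normalised reads in LacZ libraries, 2815 to 2894 in Nrf1 libraries and 67550 to 78770 in Nrf2 libraries. The gene encoding Nrf1 was not analysed here. All 10 cardiomyocyte markers examined, among them *Tnnt2* and *Actn2*, had reads in every group, and their summed normalised read count was 140900 to 162800 in LacZ, 149400 to 151100 in Nrf1 and 168300 to 171500 in Nrf2 libraries. Markers of other cells were present as well. LacZ library b had the lowest cardiomyocyte sum and the highest leukocyte sum of its group (2642, against 1838 and 1928), and the counts with and without it are given below.

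Nrf1 overexpression was accompanied by higher *Cat*, *Sod1*, *Gpx3* and *Sod2* and by lower *Sod3* and *Gpx7*, so 4 of the 10 genes were past 1.5-fold upward and 2 downward. Among all genes counted in that table, 11.5% were past the fold upward and 17.3% downward. With Nrf2, *Cat*, *Sod2* and *Gpx3* were past the fold upward and *Sod3* and *Gpx7* downward, 3 and 2 of the 10, against 9.14% and 10.4% of all genes. In the table of Nrf1 and Nrf2, *Cat* was past the fold, higher with Nrf2, and 0 of the 10 were past it in the other direction, against 11.5% and 4.98% of all genes. The median log2 ratio of the 10 genes was 0.43 for Nrf1 over LacZ and 0.47 for Nrf2 over LacZ, where the medians of all genes counted were 0.0055 and -0.0032, and it was 0.15 for Nrf2 over Nrf1 beside -0.0083 for all genes. Without LacZ library b the counts past the fold were again 4 and 2 for Nrf1 and 3 and 2 for Nrf2. Without LacZ library a, 2 rather than 4 genes were past the fold upward with Nrf1, because *Sod2* and *Gpx3* then lay just under it. The shares of all genes without these libraries were not computed.

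**Figure D1:**
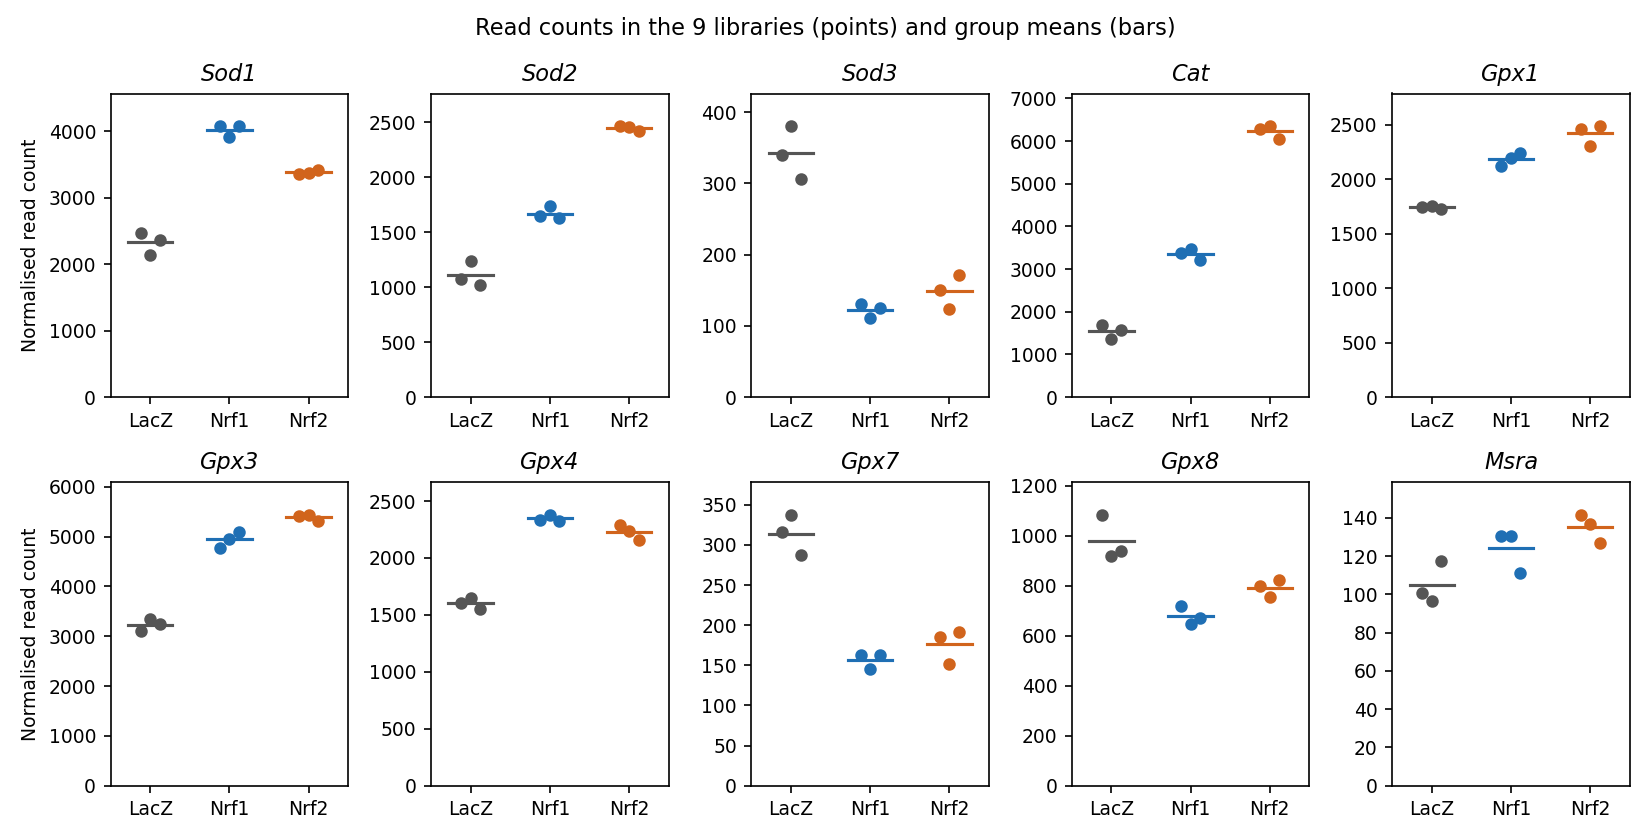
Normalised read counts of the 10 genes in the 9 libraries, 1 panel per gene, with the groups LacZ, Nrf1 and Nrf2 on the x axis and the count, from 0, on the y axis; points are libraries (a, b and c from left to right) and bars are group means. *Cat* climbs from 1368 to 1702 in LacZ to 6052 to 6355 in Nrf2 libraries, while *Sod3* and *Gpx7* are highest in LacZ.

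Catalase, the haem enzyme that breaks down hydrogen peroxide mostly in peroxisomes, moved furthest upward of the 10. In LacZ libraries a, b and c its normalised read count was 1702, 1368 and 1586. With Nrf1 the 3 libraries had 3389, 3480 and 3205, and with Nrf2 they had 6283, 6355 and 6052. The 3 groups did not overlap, and the lowest Nrf2 library lay above the highest Nrf1 library. The authors' means gave a 2.16-fold higher level with Nrf1 (log2 1.11, SE 0.062, limma adjusted p = 2.8e-10) and a 4.02-fold higher level with Nrf2 (log2 2.01, SE 0.060, adjusted p = 2.59e-12). In the direct comparison *Cat* was 1.85-fold higher with Nrf2 than with Nrf1 (log2 0.89, SE 0.030, adjusted p = 3.51e-14). Leaving out each library in turn, the ratio to LacZ ranged from 2.04 to 2.27 with Nrf1 and from 3.80 to 4.22 with Nrf2.

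The mitochondrial dismutase *Sod2* followed the same order of groups as *Cat*. It had 1077, 1234 and 1016 normalised reads in the LacZ libraries, 1648, 1733 and 1626 in the Nrf1 libraries and 2464, 2459 and 2417 in the Nrf2 libraries. No library of one group reached into the range of another, and the Nrf2 libraries lay close together (SD 26.2 around a mean of 2447, n = 3). That spread, 1.07% of the mean, was below the counting error of 1.91% per library given by its reads. *Sod2* was 2.21-fold higher with Nrf2 than with LacZ (log2 1.14, SE 0.058, limma adjusted p = 9.15e-10). With Nrf1 it was 1.502-fold higher (log2 0.59, SE 0.059, adjusted p = 3.32e-07), a value that sits at the threshold and ranged from 1.44 to 1.59 on leaving out single libraries. The Nrf2 libraries exceeded the Nrf1 libraries 1.46-fold (log2 0.55, SE 0.032, adjusted p = 7.76e-11).

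For the cytosolic dismutase *Sod1* the order of Nrf1 and Nrf2 was the opposite. The LacZ libraries had 2468, 2143 and 2368 normalised reads. The Nrf1 libraries had 4076, 3917 and 4074, and the Nrf2 libraries had 3355, 3376 and 3411. Again the 3 groups did not overlap, with Nrf1 highest and LacZ lowest. *Sod1* was 1.73-fold higher with Nrf1 (log2 0.79, SE 0.047, limma adjusted p = 5.93e-10) and 1.45-fold higher with Nrf2 (log2 0.54, SE 0.046, adjusted p = 2.29e-07), so the second value did not reach 1.5-fold. Directly compared, Nrf1 libraries exceeded Nrf2 libraries 1.19-fold (log2 of Nrf2 over Nrf1 -0.26, SE 0.026, adjusted p = 1.62e-07). Among all genes of the pair, 28.6% were higher and 30.2% lower with Nrf2 at an adjusted p under 0.05, and of the 10 enzymes 5 were higher and 2 lower.

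The secreted dismutase *Sod3* ran against the other dismutases. Its normalised read counts were 339.7, 380.5 and 305.8 in LacZ, 130.7, 111.2 and 125.8 in Nrf1 and 150.8, 123.4 and 171.5 in Nrf2 libraries. Every LacZ library was higher than every Nrf1 and Nrf2 library, whereas the Nrf1 and Nrf2 libraries overlapped. *Sod3* was 2.80-fold lower with Nrf1 (log2 -1.48, SE 0.10, limma adjusted p = 3.04e-09) and 2.301-fold lower with Nrf2 (log2 -1.20, SE 0.12, adjusted p = 7.75e-07). Between Nrf2 and Nrf1 the difference did not pass the threshold (log2 0.27, adjusted p = 0.0661, 95% interval 0.013 to 0.51), although it did without Nrf2 library b, the lowest of its group (log2 0.39, adjusted p = 0.00863).

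**Figure D2:**
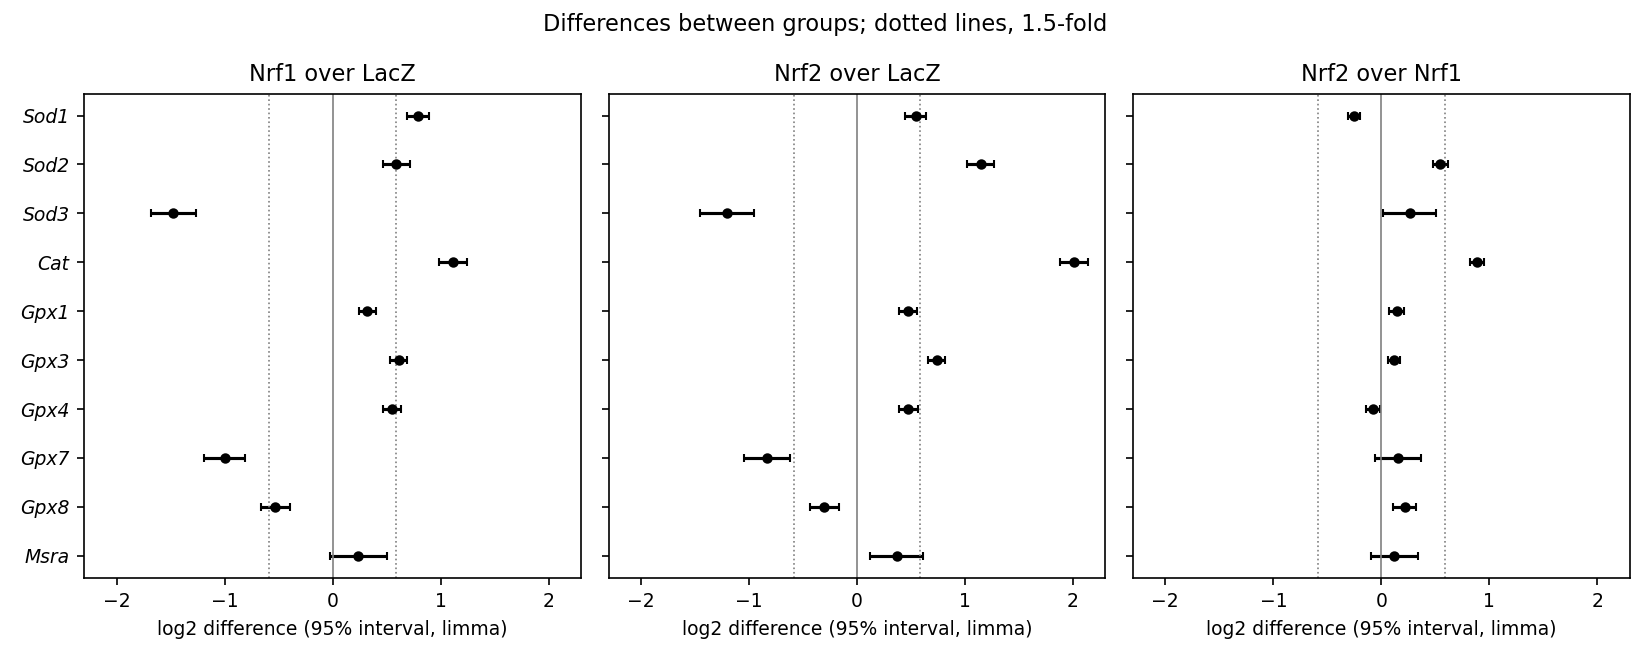
Log2 differences between groups for the 10 genes, 1 panel per pair of groups; points are limma estimates over 3 libraries per group, horizontal bars are 95% intervals and dotted lines mark 1.5-fold. *Sod1*, *Sod2* and *Cat* lie right of 0 and *Sod3*, *Gpx7* and *Gpx8* left of 0 in both comparisons with LacZ, and in the third panel *Cat* has the largest difference.

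Of the peroxidases, 3 carry selenocysteine in the active site, *Gpx1* in the cytosol and mitochondria, *Gpx3* as the secreted plasma form and *Gpx4* as the enzyme that reduces lipid hydroperoxides in membranes and so counters ferroptosis. All 3 were higher with either factor. *Gpx3* had 3097, 3341 and 3251 normalised reads in LacZ, 4776, 4956 and 5101 in Nrf1 and 5410, 5442 and 5320 in Nrf2 libraries. Its groups did not overlap, and the ratios to LacZ were 1.53 with Nrf1 (log2 0.61, SE 0.038, limma adjusted p = 1.27e-09) and 1.67 with Nrf2 (log2 0.74, SE 0.037, adjusted p = 7.27e-10).

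*Gpx4* had 1609, 1645 and 1555 normalised reads in the LacZ libraries, against 2337, 2382 and 2326 with Nrf1 and 2293, 2238 and 2159 with Nrf2. Both sets lay wholly above LacZ, 1.46-fold with Nrf1 (log2 0.55, SE 0.038, limma adjusted p = 4.64e-09) and 1.39-fold with Nrf2 (log2 0.48, SE 0.040, adjusted p = 2.13e-07), short of 1.5-fold in each case. Nrf2 was slightly below Nrf1 (log2 -0.079, SE 0.031, adjusted p = 0.0343), and on leaving out single libraries the log2 difference stayed between -0.099 and -0.057. The call was lost without Nrf1 library a or b or Nrf2 library b or c, where the adjusted p was 0.0557 to 0.143, and in a fit over all 9 libraries (log2 -0.075, adjusted p = 0.0912).

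*Gpx1* had the smallest spread relative to its mean of the 10 genes in the control, with 1750, 1758 and 1731 normalised reads in the LacZ libraries (SD 14.03, n = 3). That spread, 0.803% of the mean, was below the counting error of 2.51% per library given by its reads. The Nrf1 libraries had 2122, 2192 and 2243, and the Nrf2 libraries had 2465, 2308 and 2489. The groups were ordered LacZ, Nrf1, Nrf2 without overlap. *Gpx1* was 24.96% higher with Nrf1 (log2 0.32, SE 0.038, limma adjusted p = 2.04e-06) and 38.7% higher with Nrf2 (log2 0.47, SE 0.040, adjusted p = 2.21e-07), and 10.4% higher with Nrf2 than with Nrf1 (log2 0.14, SE 0.034, adjusted p = 0.00162). *Gpx3* was likewise higher with Nrf2 than with Nrf1 by a small step, 1.09-fold (log2 0.12, SE 0.026, adjusted p = 0.000597).

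*Gpx7* and *Gpx8* belong to the same family by sequence but act in the endoplasmic reticulum with a cysteine in place of selenocysteine. Both were lower with either factor. *Gpx7* had 315.6, 337.9 and 288.0 normalised reads in LacZ, 162.9, 145.3 and 162.4 in Nrf1 and 185.6, 151.4 and 192.0 in Nrf2 libraries. LacZ lay above both other groups, which overlapped each other. The fall was 2.00-fold with Nrf1 (log2 -1.003, SE 0.089, limma adjusted p = 8.26e-08) and 1.78-fold with Nrf2 (log2 -0.83, SE 0.099, adjusted p = 6.8e-06), and the difference between Nrf2 and Nrf1 had a 95% interval of -0.055 to 0.37 (adjusted p = 0.192). Without Nrf2 library b that difference was 0.26 on the log2 scale (adjusted p = 0.0336).

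*Gpx8* had 1085, 919.3 and 937.6 normalised reads in LacZ libraries. Nrf1 libraries had 720.5, 645.7 and 672.3, and Nrf2 libraries had 797.9, 755.1 and 824.4. The groups did not overlap, with Nrf1 lowest. *Gpx8* was 1.45-fold lower with Nrf1 (log2 -0.53, SE 0.064, limma adjusted p = 2.7e-06) and 1.24-fold lower with Nrf2 (log2 -0.31, SE 0.062, adjusted p = 0.000836), and it was 1.16-fold higher with Nrf2 than with Nrf1 (log2 0.22, SE 0.051, adjusted p = 0.00129).

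*Msra*, which reduces methionine sulfoxide in oxidised proteins, had few reads, 86 to 171 per library. It had 100.5, 96.5 and 117.3 normalised reads in LacZ, 130.7, 130.7 and 110.9 in Nrf1 and 141.7, 136.5 and 126.7 in Nrf2 libraries. Nrf1 libraries overlapped LacZ libraries, and the 1.18-fold ratio did not pass the test (log2 0.24, limma adjusted p = 0.0949, 95% interval -0.020 to 0.50), except without LacZ library c (adjusted p = 0.0455). Nrf2 libraries lay above LacZ libraries, 1.29-fold (log2 0.37, SE 0.11, adjusted p = 0.0134), a call lost without Nrf2 library a (adjusted p = 0.0587). Between Nrf2 and Nrf1 the interval was -0.099 to 0.34 (adjusted p = 0.341). At this depth the counting error of *Msra* is 8.1% to 10.3% per library, close to the spread seen between its libraries, 5.65% to 10.5%.

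By the adjusted p alone, 6 of the 10 genes were higher and 3 lower with Nrf1 than with LacZ, where 34.7% and 32.3% of all genes passed upward and downward. With Nrf2, 7 were higher and 3 lower, against 28.6% and 26.0% of all genes. The libraries of the 2 groups did not overlap for 6 higher and 3 lower genes with Nrf1 (36.5% and 34.2% of all genes), for 7 and 3 with Nrf2 (31.6% and 30.0%), and for 5 and 2 between Nrf2 and Nrf1 (31.1% and 32.7%). All of the 10 genes that were past 1.5-fold in a table also had an adjusted p under 0.05 there, which left 4 and 2 with Nrf1 (11.3% and 16.6% of all genes), 3 and 2 with Nrf2 (8.79% and 9.42%) and 1 and 0 between Nrf2 and Nrf1 (10.7% and 4.63%).

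**Figure D3:**
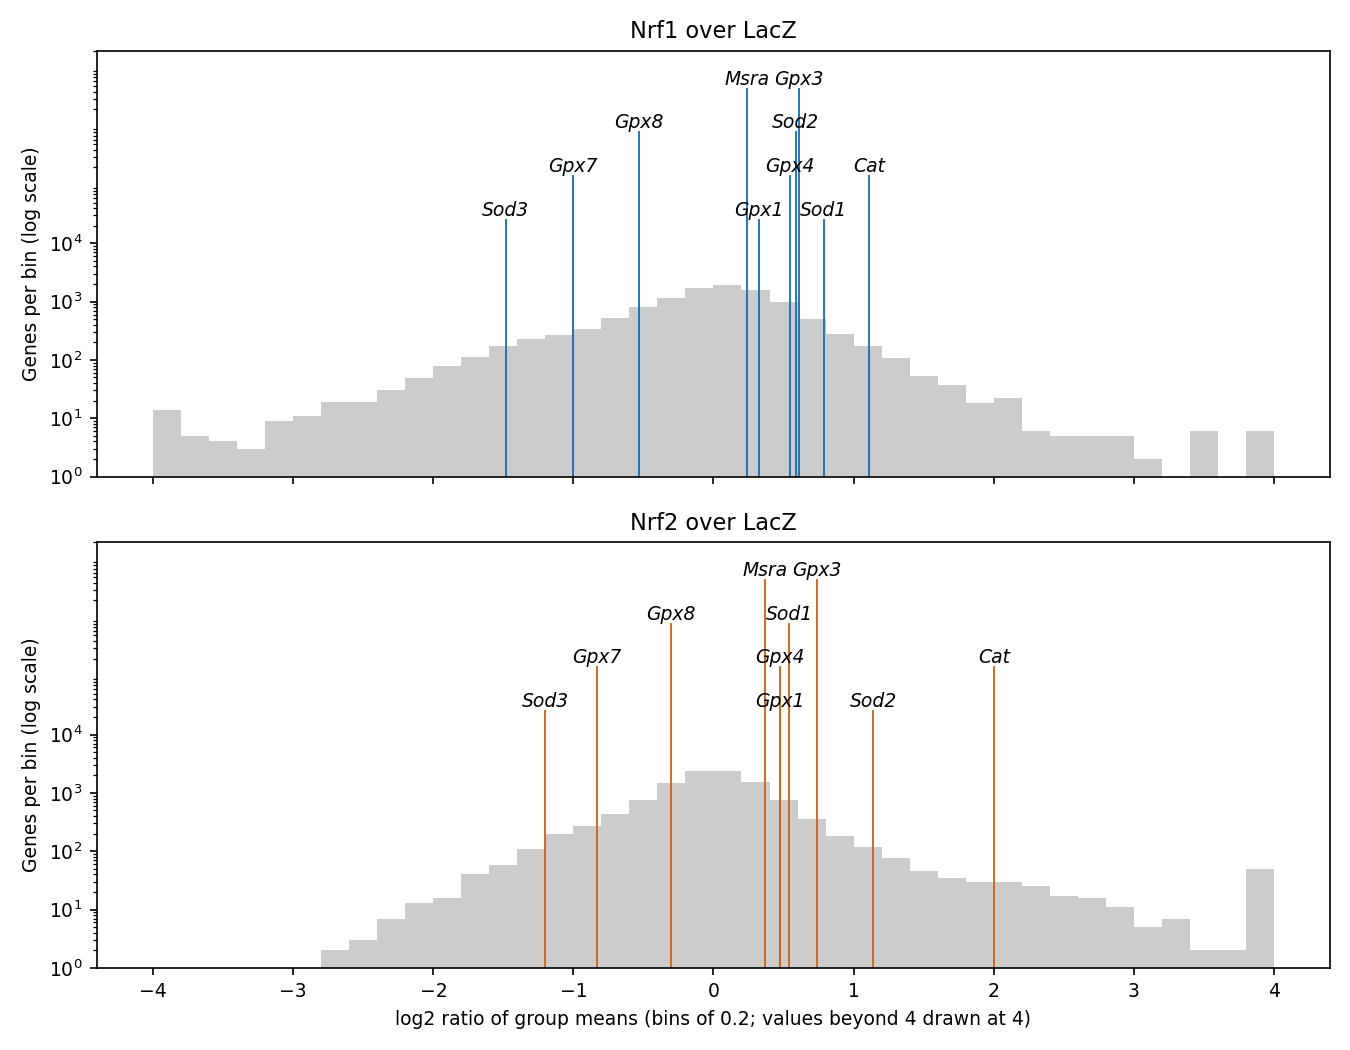
Distribution of the log2 ratio of group means over all genes with an average mean of at least 10 (grey bars, log scale, bins of 0.2) for Nrf1 over LacZ and Nrf2 over LacZ, with vertical lines at the 10 genes. *Cat* is exceeded by 3.01% of genes with Nrf1 and 1.42% with Nrf2, and *Sod3* has 3.92% and 2.14% of genes below it.

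Against the distribution of all genes, 3.31% had a higher ratio than *Sod2* with Nrf2 and 11.4% with Nrf1. For *Sod1* the shares were 10.2% with Nrf2 and 6.6% with Nrf1. *Gpx7* had 9.06% of genes below it with Nrf1 and 5.83% with Nrf2, while *Msra* was exceeded by 30.2% and 17.0%.

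*Sod3*, *Gpx7* and *Gpx8* were lower in the groups in which the summed markers of fibroblasts, leukocytes and endothelial cells were lower. The summed smooth muscle markers were higher in those groups, although single markers of that list were lower. All 10 fibroblast markers, among them the collagen gene *Col1a1* and the proteoglycan gene *Dcn*, were past 1.5-fold downward with Nrf1 and 7 of 10 with Nrf2. The summed fibroblast markers were 122800 to 128800 in LacZ, 31330 to 33750 in Nrf1 and 64050 to 69170 in Nrf2 libraries. The group means of these 3 enzymes were lowest with Nrf1. For *Sod3* and *Gpx7* the difference between Nrf2 and Nrf1 did not pass the limma test (adjusted p = 0.0661 and 0.192). The fibroblast sum was lowest with Nrf1 too, and no marker was at 0 in a group. Most of this sum came from *Col1a1* and *Col3a1*, with LacZ means of 86236 and 24974 in the pair with Nrf1. By the adjusted p, 9 of the 10 fibroblast markers were higher with Nrf2 than with Nrf1 (28.6% of all genes). *Tcf21* was lower (log2 -0.92, limma adjusted p = 0.00237). Of 9 leukocyte markers counted, 8 were past the fold downward with each factor, and the sums over all 10 markers of that list, including *Cd163*, which was too low to be counted, were 1838 to 2642 in LacZ, 1051 to 1074 in Nrf1 and 995.1 to 1136 in Nrf2 libraries. Of 8 endothelial markers, 5 were past the fold downward with Nrf1 and 4 with Nrf2. Upward, 0 were past it with Nrf1 and 1 with Nrf2, *Egfl7* (log2 0.81, limma adjusted p = 0.000184). The endothelial sums were 2100 to 2208 in LacZ, 1398 to 1489 in Nrf1 and 1387 to 1661 in Nrf2 libraries. In the leukocyte and endothelial sums the ranges of Nrf1 and Nrf2 libraries overlapped. The 5 smooth muscle markers had sums of 32460 to 39180 in LacZ, 59200 to 60040 in Nrf1 and 46950 to 50190 in Nrf2 libraries, with 2 past the fold upward and 1 downward with Nrf1, and 1 upward with Nrf2. Most of that sum came from *Acta2* and *Tagln*, with LacZ means of 16483 and 12803 in the pair with Nrf1. *Myh11* was lower with Nrf1 (log2 -1.01, limma adjusted p = 1.59e-11). By the adjusted p, 3 of the 5 were higher and 2 lower with each factor. The shares of all genes were 34.7% and 32.3% with Nrf1, and 28.6% and 26.0% with Nrf2. Of the 10 cardiomyocyte markers, 2 were past the fold upward and 3 downward with Nrf1 and 0 in either direction with Nrf2. The part of these shifts in the values of the enzymes was not tested, and in bulk RNA fewer cells of a type and less RNA per cell cannot be told apart.

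**Figure D4:**
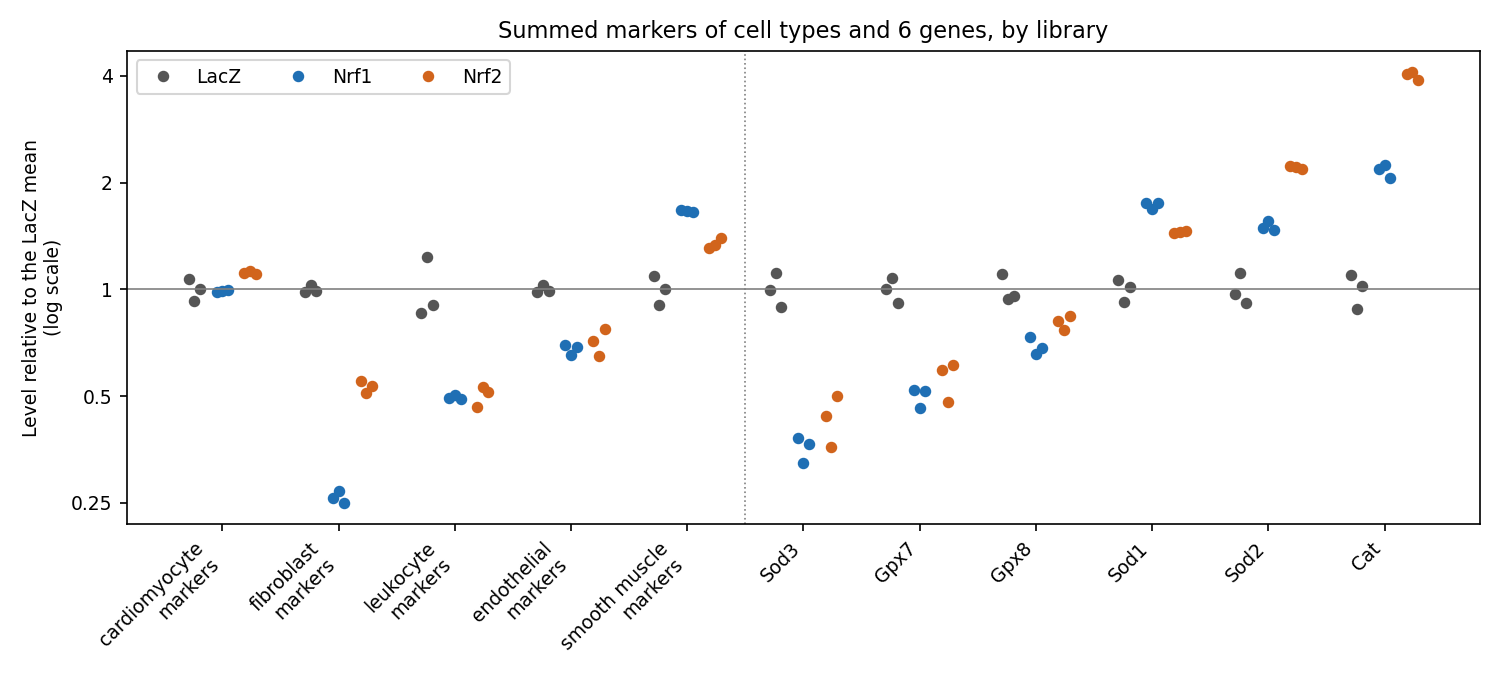
Summed normalised read counts of the 5 lists of cell type markers (left of the dotted line) and counts of 6 of the enzymes (right), each divided by its LacZ mean and drawn on a log2-spaced axis; points are the 9 libraries, coloured by group. The fibroblast sums and *Sod3*, *Gpx7* and *Gpx8* are lower than in LacZ with both factors, whereas *Sod1*, *Sod2* and *Cat* are higher.

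Other enzymes of peroxide and thiol metabolism were read beside these genes. Of 27 counted, 13 were past 1.5-fold upward and 3 downward with Nrf1, and 16 and 0 with Nrf2. Their median log2 ratio was 0.52 with Nrf1 and 0.81 with Nrf2. Of all genes, 11.5% were past the fold upward and 17.3% downward with Nrf1, and 9.14% and 10.4% with Nrf2. The same shares apply to the lists that follow. *Gsr*, which regenerates the glutathione spent by the peroxidases, was higher with Nrf1 (log2 1.44, SE 0.055, limma adjusted p = 3.08e-12) and with Nrf2 (log2 1.78, SE 0.051, adjusted p = 1.72e-12). *Msrb1*, a selenoprotein that reduces the other stereoisomer of methionine sulfoxide from that reduced by *Msra*, was higher by 1.27 with Nrf1 and 0.82 with Nrf2 on the log2 scale, while *Msrb2*, its mitochondrial relative, was higher by 1.21 with Nrf1 and differed by -0.035 with Nrf2 (adjusted p = 0.848). One further glutathione peroxidase, *Gpx2*, had 5 to 7 reads in each LacZ library, 48 to 52 with Nrf1 and 37 to 41 with Nrf2, and its means were 8.01-fold and 5.596-fold those of LacZ.

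Among 24 of these enzymes with an average mean of at least 100, the nearest in pattern, by Euclidean distance over the 3 log2 ratios of the 3 tables, were as follows. *Sod1* was nearest to *Txn1* (0.30), *Prdx5* (0.31) and *Txn2* (0.38). *Sod2* was nearest to *Gclc* (0.15), *Tigar* (0.35) and *Prdx6* (0.44). *Cat* was nearest to *Gclm* (0.40), *Gss* (0.44) and *Gsr* (0.69), which make or regenerate glutathione. These distances describe 3 groups that share their libraries across tables.

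Genes that supply these enzymes with metal were examined next. *Ccs*, the chaperone that inserts copper into Sod1, was lower where *Sod1* was higher, with Nrf1 (log2 -0.45, SE 0.084, limma adjusted p = 0.000208) and with Nrf2 (log2 -0.23, SE 0.081, adjusted p = 0.0254). Of the 7 genes of copper and manganese supply, 0 were past 1.5-fold with Nrf1 and 1 with Nrf2, the manganese and zinc importer *Slc39a8* (log2 0.91, SE 0.13, adjusted p = 2.9e-05). By the adjusted p, 1 was higher and 3 lower with Nrf1, against 34.7% and 32.3% of all genes. With Nrf2, 2 were higher and 2 lower, against 28.6% and 26.0%.

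Selenocysteine insertion is needed for *Gpx1*, *Gpx3* and *Gpx4*. Of 9 genes of that machinery, 2 were past the fold upward with Nrf1, *Sephs2*, which makes the selenium donor (log2 1.15, SE 0.051, limma adjusted p = 1.99e-11), and *Sepsecs*, which forms selenocysteine on its tRNA (log2 0.64, SE 0.082, adjusted p = 4.67e-06). With Nrf2 none of the 9 was past the fold, and *Sephs2* and *Sepsecs* had log2 ratios of 0.080 and 0.029. By the adjusted p, 1 of the 9 was higher and 2 lower with Nrf2, against 28.6% and 26.0% of all genes. In the direct comparison *Sephs2* was lower with Nrf2 than with Nrf1 (log2 -1.08, SE 0.051, adjusted p = 3.33e-12), and *Sepsecs* too (log2 -0.62, SE 0.074, adjusted p = 1.2e-06). Of 12 other selenoproteins counted, a list that repeats *Sephs2*, *Msrb1* and the thioredoxin reductases of the lists above, 3 were past the fold upward with Nrf1 (*Sephs2*, *Msrb1* and *Selk*) and 2 with Nrf2 (*Msrb1* and *Txnrd1*). Downward, the secreted *Sepp1* was past the fold with both (log2 -1.26 and -0.77), and *Dio3* with Nrf1 without passing the test (log2 -0.64, limma adjusted p = 0.0992).

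Peroxisomes hold catalase. Of 19 peroxisomal genes counted, 6 were past 1.5-fold upward with Nrf1 and 1 with Nrf2, and 0 downward with either, whereas *Cat* itself was higher with Nrf2 than with Nrf1. *Pex19*, which carries membrane proteins to the peroxisome, was higher with Nrf1 (log2 0.88, SE 0.14, limma adjusted p = 4.56e-05) and with Nrf2 (log2 0.63, SE 0.10, adjusted p = 0.000137). The import receptor *Pex5* had means of 8.38 and 7.04 in the table of LacZ and Nrf1, too low to be counted. By the adjusted p, 13 of the 19 were lower and 1 higher with Nrf2 than with Nrf1, against 30.2% and 28.6% of all genes.

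Genes whose products generate superoxide or hydrogen peroxide were the last group. Of 17 counted, 2 were past the fold upward and 10 downward with Nrf1, and 5 and 4 with Nrf2. *Cybb* and *Cyba*, the membrane subunits of the phagocyte NADPH oxidase, were lower with Nrf1 (log2 -1.39 and -1.42) and with Nrf2 (log2 -1.30 and -0.80), in libraries in which leukocyte markers were lower too. *Maoa*, a mitochondrial enzyme that releases hydrogen peroxide, was higher with both (log2 2.04 with Nrf1 and 1.82 with Nrf2). *Xdh*, which makes urate, superoxide and hydrogen peroxide, was lower with Nrf1 (log2 -1.23, SE 0.11, limma adjusted p = 6.58e-08) and higher with Nrf2 (log2 0.68, SE 0.086, adjusted p = 1.05e-05), and the direct difference between Nrf2 and Nrf1 was 1.91 on the log2 scale (SE 0.084, adjusted p = 1.36e-12).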

How the data were processed

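Stranded mRNA libraries of NRVMs were sequenced as 75-bp single-end reads. Per the study's methods, quality was checked by the authors in FastQC 0.11.4, HISAT2 2.0.4 was used for alignment to the rat genome (Rnor 6.0), SAMtools 0.1.18 for the removal of duplicates and featureCounts 1.6.0 for gene counts. Removing duplicates from single-end reads can lower the counts of abundant genes, which was not tested here. The organism label says mouse, while the strain, cell type and genome build labels say rat, and the data were treated as rat.

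The deposited tables hold, for each pair of groups, a signal per gene and group, the authors' mean of read counts divided by size factors. Their fold-change, p-value and adjusted p-value columns were not used. The study's methods name edgeR 3.20.5, while the column names are those of another package, so the tool behind those columns is not given in the sources used here. There were 0 unused columns of single samples.

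The planned comparison was the ratio of the authors' means, with no test. Each mean is a sum of 3 whole read counts times 3 fixed steps, and each group stands in 2 tables, so the library counts were solved from 2 equations per gene. Exactly 1 solution was found for 15143 of 15144 symbols in LacZ and for 15096 of 15096 usable symbols in Nrf1 and in Nrf2, and 49 symbols not recovered in every group (48 of them in 1 table only) were left out. These counts are derived here. No pair of libraries of a group agreed within sampling noise (chi-square test). Counting error depends on the reads of a gene and was computed as the inverse square root of its mean count.

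Limma 3.58.1 in R 4.3.3 (empirical Bayes with a trend, pseudocount 1, 3 libraries against 3) was added after the values had been seen. Recovery and limma were tested on simulated data. All 10 genes passed the minimum average mean of 10. Named genes were the 10, partners of these enzymes, and listed genes past 1.5-fold in a comparison with LacZ, besides *Nfe2l2*, and *Tnnt2* and *Actn2* as markers. The genes and lists were chosen with earlier results of these data known. Alternatives were a higher and a lower cutoff, a pseudocount on the means, other scalings, values from the other 2 tables, other minimums, limma fits and leaving out each library. No reference sequence or annotation of the rat build was used here, so levels were not compared between genes.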

Additional observations from a re-analysis of the deposited data

How the results depend on the processing

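No log2 ratio of the 10 genes changed sign under any alternative tried. Past a cutoff of 2, 1 of the 10 genes was higher and 2 lower with Nrf1 than with LacZ (3.96% and 9.13% of all genes). With Nrf2, 2 were higher and 1 lower (4.09% and 3.87%), and between Nrf2 and Nrf1 0 were past it in either direction (5.16% and 1.13%). At the lower cutoff, 7 were higher with Nrf2 than with LacZ (19.3% of all genes) and 2 than with Nrf1 (21.5%). By limma without a fold, 7 were higher with Nrf2 than with LacZ, and 5 were higher and 2 lower than with Nrf1. Re-centring on the median gene or scaling by summed means left 2 rather than 4 past the fold upward with Nrf1 over LacZ, since *Sod2* (log2 0.53 in both) and *Gpx3* (0.55 in both) fell under it, and *Gpx8* came past it (-0.59 in both). The shares of all genes past the fold under these scalings, which shift every gene, were not computed. A pseudocount of 1, the other 2 tables, limma on top of the fold and a fit over all 9 libraries each left the side of the fold as it was in 30 of 30 comparisons of a gene.

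Leaving out single libraries gave 2 to 4 genes past the fold upward with Nrf1 and changed no other count of the 10. The shares of all genes were not computed for these subsets. *Sod2* fell under it without LacZ library a (log2 0.57), LacZ library c (0.53) or Nrf1 library b (0.56), and *Gpx3* without LacZ library a (0.58). The adjusted p-values that crossed 0.05 are given beside their genes. No paired analysis was possible because the recovered libraries carry no replicate number.

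Over all genes the counts depend on the minimum. With none, 2229 were higher and 3595 lower with Nrf1, 2334 and 2327 with Nrf2, and 2995 and 1300 for Nrf2 over Nrf1. With an average mean of at least 100, 894 were lower with Nrf1 (1941 at a minimum of 10), 605 higher and 516 lower with Nrf2 (1042 and 1184), and 560 and 341 for Nrf2 over Nrf1 (1300 and 564). Depth limits the precision of *Msra*, with 86 to 171 reads per library.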
